A study of Mus musculus with 4 samples.

Results

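Solute carriers are membrane proteins that move small molecules across the plasma membrane and the membranes of organelles, either down a gradient or coupled to the flow of sodium, protons or another solute. Their genes are named Slc, a subfamily number and a letter with a member number, and a subfamily groups proteins of related sequence that often share substrates. In macrophages and microglia they are known for taking up cystine, glucose, arginine and iron, for exporting lactate and iron, and for carrying peptides and nucleosides out of endolysosomes. Members were chosen by symbol alone, as every mouse gene whose symbol starts with Slc followed by a digit, which leaves out the Slco organic anion transporters. The rule found 377 genes among 23783 genes with a symbol in the deposited table. Each gene was represented by its most abundant RefSeq transcript record, and 111 of the 377 had enough counts to be tested. The symbols of 7 members name no transporter, such as the scaffold protein gene Slc9a3r1, and these are counted apart.

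The study sequenced RNA of BV-2 cells, an immortalised mouse microglial line, after 4 h with 10 ng/ml lipopolysaccharide (LPS), a bacterial membrane component that activates Toll-like receptor 4, and in untreated control cells. Each group had 2 libraries, all from the wild-type line with no other agent named. BV-2 is a single line, the protocol text also describes shaking of mixed glial cultures, and no label says that libraries came from separate cultures. The p-values therefore measure only the spread between these libraries, which may be technical.

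Total counts were 2778686 to 3368693 per library, and the 5 most abundant records took 53.4% to 67.5% of them. Solute carrier genes held 1.47% to 1.60% of the remaining counts, which is 13294 to 22814 counts per library. Control replicate 1 was the thinnest, with 902176 counts outside those 5 records against 1327707 to 1425303 in the other libraries. The control pair also differed with base composition. Over the 111 members tested, Spearman's rho of their log2 ratio with GC content was 0.64, against 0.17 for the LPS pair, and the SD of the ratio was 0.541 against 0.300 on the log2 scale. The part of this difference in the results below was not tested beyond leaving out each library and removing a GC trend. Of 12 genes listed as microglia and macrophage markers, 7 were tested, with a summed level of 6947 to 8008 normalised counts in every library. Lyz2 made up most of that sum (means of 4523 in controls and 4700.4 with LPS). Spi1, the gene of the macrophage factor PU.1, rose from a mean of 509 to 1125 (log2 fold change 1.15, adjusted p = 0.00391), and Laptm5 had 568 and 367 (adjusted p = 0.105); the part of either in the results below was not tested. Itgam, which has 2 records, had no count. Aif1 and Cx3cr1, each with 1 record, were also too low to be tested. Aif1 had 3 and 7 counts in the controls and 4 and 3 with LPS, and Cx3cr1 had 4 and 2 against 9 and 8. Ptprc (3 records) and Trem2 (2 records) were not tested either. The lists for astrocytes (5 of 6 genes at 0), oligodendrocytes (6 of 6), neurons (5 of 5) and endothelial cells and fibroblasts (5 of 6) summed to 0 to 1.96. The LPS-induced genes Il1b, Nfkbia and Acod1 summed to 98.5 and 88.6 normalised counts in the controls and to 6275 in each LPS library, which matches the labels.

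Whether a member was counted depended on how many transcript records it had. Of 288 members with 1 record 106 were tested (36.8%), but of 89 members with 2 or more records only 5 were (5.62%). All genes in the table showed the same split, 34.8% against 6.07%. How the counting treated reads shared by several records is not given in the sources used here, so a low or zero value of a gene with several records is no measure of its level. This touched carriers central to macrophage metabolism. Slc16a3, the lactate exporter of glycolytic cells, had 0 counts in all libraries over its 3 records. Slc3a2, the heavy chain that partners Slc7a11 and Slc7a5, had 3 and 1 counts in the controls and 4 and 4 with LPS on its most abundant record. Slc7a2, an arginine carrier of activated macrophages, had 3 counts in the controls and 1 with LPS. Slc39a14, an iron and zinc importer, had 1 and 2 counts in the same order. For Slc2a6, a lysosomal hexose carrier, 2 and 2 counts in the controls faced 6 and 8 with LPS, too few to be tested. Of carriers with 1 record, the glutamate transporter Slc1a3 had 1 count over all libraries and the glucose carrier Slc2a3 had 3. Both were listed for a textbook role in macrophages or LPS responses.

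After LPS, 7 of the 111 members tested were higher and 3 were lower at an adjusted p under 0.05, where p came from edgeR's quasi-likelihood test and was adjusted by Benjamini-Hochberg over all 6981 records tested. A record that passes is said below to have risen or fallen. The risers were Slc7a11, Slc15a3, Slc11a2, Slc4a7, Slc2a1, Slc16a10 and Slc39a1, and Slc29a3, Slc40a1 and Slc6a6 fell. The shares were 6.31% and 2.70% of members, beside 3.82% higher and 1.70% lower over all records, and no test was made of the difference. Both LPS libraries lay above both controls for 27 members (24.3%) and below for 29 (26.1%), against 21.4% and 21.9% of all records, so the order of the libraries alone showed shares near the background. The median log2 fold change was -0.02 over members and -0.01 over all records, with quartiles of -0.31 and 0.21 for the members. In bulk RNA, fewer cells that express a gene and less RNA per cell cannot be told apart.

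**Figure D1:**
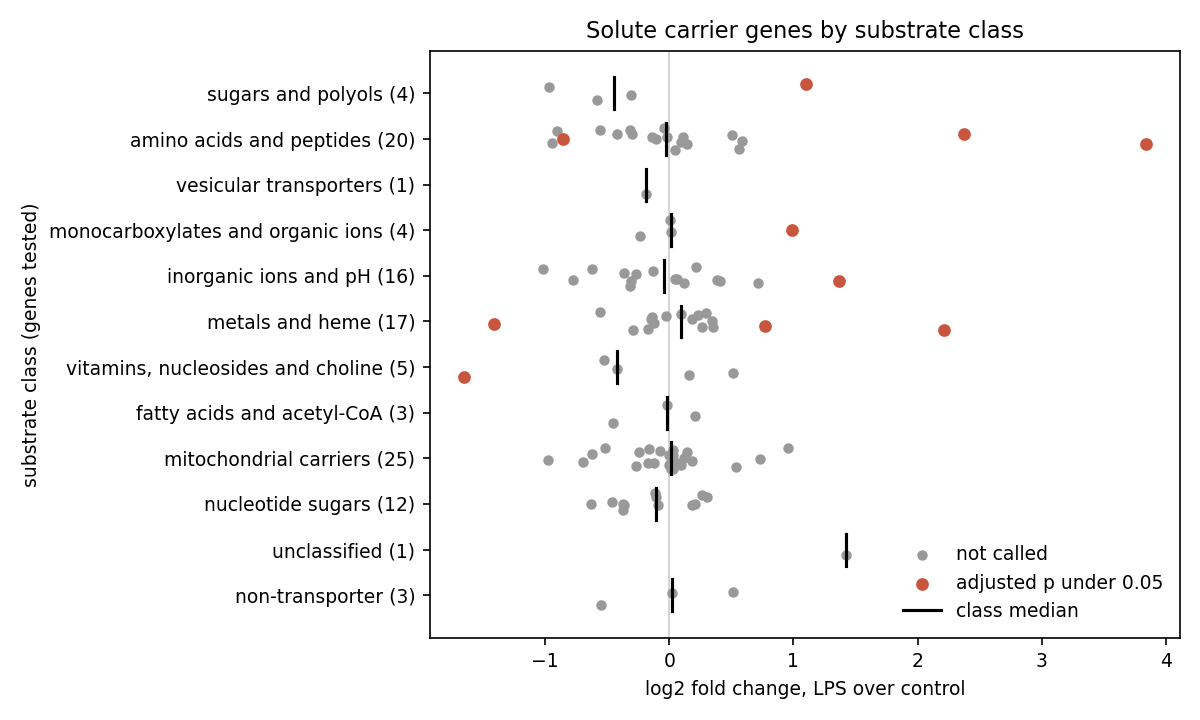
Log2 fold change after LPS (x axis, LPS over control) of each tested solute carrier gene, by substrate class (y axis, number tested in parentheses), where a point is 1 gene, red marks an adjusted p under 0.05 and the black bar is the class median. The 10 genes that changed are spread over 6 classes, and none of the 25 mitochondrial carriers or 12 genes of the nucleotide sugar class is red in this fit. Over all records 3.82% were called higher and 1.70% lower, so classes of this size may hold few calls or none.

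Calls were few and spread over substrates. With 3.82% of all records called higher and 1.70% lower, the classes are too small for their numbers of calls to be compared. The sum of normalised counts over all members went from 18648 and 18535 in the controls to 21003 and 20407 with LPS. That gain of 2114 was close to the 2197 gained by the 7 risers alone, of which Slc15a3 gave 829. Of the 101 members that were not called, 65 had a 95% interval within 1 log2 unit on both sides, and 18 had an unadjusted p under 0.05. The share of all records under that unadjusted threshold was not computed, so such counts, here and below, have no background to be read against. The counts depend on single libraries. Without a control library the spread comes from the LPS pair alone, the tighter pair (SD of the log2 ratio 0.300 against 0.541). Adjusted p-values of such fits hold no control spread, so only their log2 fold changes are given for uncalled genes below. Without LPS replicate 1 or without LPS replicate 2 the spread comes from the control pair alone, and fewer members and fewer of all records passed. Without control replicate 1 or without control replicate 2, more members and more of all records passed. With a trend of counts on GC content and length removed, 11 of 111 members rose and 8 fell, beside 428 and 319 of all 6981 records. Rises then made up 57.3% of calls over all records in place of 69.2%. The 4 that rose in each of these fits were Slc7a11, Slc15a3, Slc11a2 and Slc4a7.

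**Figure D2:**
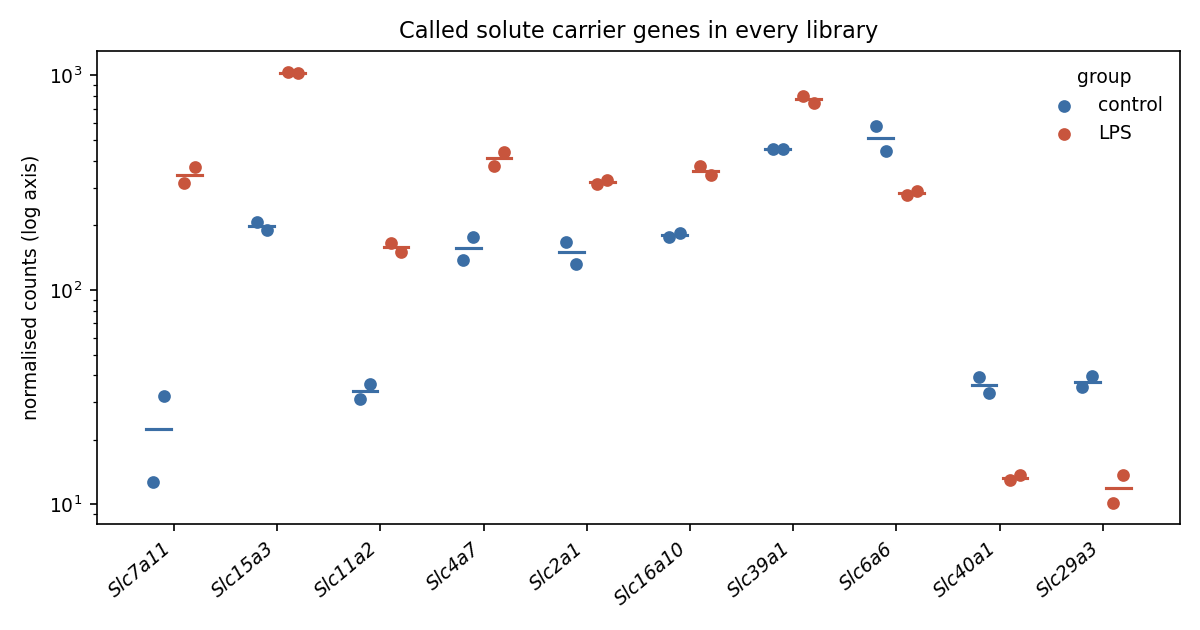
Normalised counts (y axis, log axis) of the 10 solute carrier genes that changed (x axis) in each of the 2 control libraries (blue points) and 2 LPS libraries (red points), where horizontal bars are group means. In every gene the groups are apart; Slc7a11 has the widest control pair, 12.7 and 32.1, below LPS values of 313 and 376.

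Among 20 tested carriers of amino acids and peptides, 2 rose, 1 fell and 17 were not called, and the class median was -0.03. The largest log2 fold change of the 111 tested members was that of Slc7a11, known as xCT, the light chain of the exchanger that imports cystine for glutathione synthesis and exports glutamate. Its normalised counts (counts scaled to the mean effective library size) were 12.7 and 32.1 in the controls and 313 and 376 with LPS. Both LPS libraries were far above both controls, and the control libraries themselves differed more in ratio than the LPS pair did. It rose by a log2 fold change of 3.84 with a standard error (SE) of 0.32 and a 95% interval of 3.13 to 4.55 (adjusted p = 2.1e-05). Over all alternative fits it lay between 3.43 and 4.75 and passed in each. Slc7a11 lies on chromosome 3, minus strand, at 50364936 to 50499087 of mm10, whose coordinates are those of GRCm38.

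Promoter sequence is shown for Slc7a11, the largest riser, and Slc39a1, a zinc carrier on the same chromosome described below, because both hold a match to a motif read by stress-responsive factors. RefSeq gave an upstream sequence for 6 of the 10 genes that changed. In the first, capitals mark both matches to the CARE motif TGATGNAA, the element that Atf4 binds in amino acid stress. In the second, they mark a match to the antioxidant response element TGACNNNGC, read by Nrf2. The sequences run 5′ to 3′ on the gene's strand, from RefSeq's GRCm38.p6 assembly, at chr3:50443644-50443863 (minus) and chr3:90247942-90248161 (plus).
Slc7a11: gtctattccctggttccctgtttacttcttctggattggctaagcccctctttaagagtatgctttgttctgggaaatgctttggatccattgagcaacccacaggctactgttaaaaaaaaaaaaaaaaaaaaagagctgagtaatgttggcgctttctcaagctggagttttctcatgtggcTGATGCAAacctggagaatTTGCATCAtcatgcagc
Slc39a1: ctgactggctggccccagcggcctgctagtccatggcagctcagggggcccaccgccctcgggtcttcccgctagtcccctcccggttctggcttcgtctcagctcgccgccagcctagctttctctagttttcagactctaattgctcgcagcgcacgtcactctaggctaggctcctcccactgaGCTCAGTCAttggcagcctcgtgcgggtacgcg
The CARE matches of Slc7a11 begin 66 bases (plus strand) and 47 bases (minus strand) before the start of its RefSeq record at 50443613, which lies inside the span given above for the gene. The match of Slc39a1 begins 63 bases before its record's start, on the minus strand. Searching both strands of the 250 bases before the start, CARE was found in 3.45% of 32851 promoters and the antioxidant element in 10.2%. Of the 107 promoters of tested members, 3 held CARE and 20.6% the antioxidant element. For Slc4a7 the RefSeq start lies inside the gene's span, 16505 bases from the start of the counted record, so its sequence is not described. A loose NF-kB motif (GGG and CC with any 5 bases between them) was found before each of the other 5 genes, in 61.7% of the promoters of tested members and in 45.8% of all promoters. The motifs for AP-1 (TGANTCA, 6.75% of all promoters), CRE (TGACGTCA, 1.55%), ISRE (GAAA repeated after any 2 bases, 2.98%), PU.1 (GAGGAAGT, 2.44%) and the E-box (CACGTG, 6.02%) had no match before these 5 genes. A match is a description of letters and not a bound site, and no binding data were used here.

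The second riser of this class was Slc15a3, a proton-coupled carrier that moves histidine and bacterial muropeptides out of endolysosomes. It had 208 and 190 normalised counts in the controls and 1034 and 1023 with LPS. The groups were apart and each pair was tight, 199 ± 12.9 against 1028 ± 7.56 (SD, n = 2). Its log2 fold change was 2.37 (SE 0.19, adjusted p = 1.4e-05), and it passed in every alternative fit. Slc15a3 lies on chromosome 19 at 10842544 to 10857915 and overlaps Tmem132a. Its relative Slc15a4, another endolysosomal carrier of histidine and peptides, was at 212 and 137 in the controls and 200 and 168 with LPS. Those values overlap, and the log2 fold change of Slc15a4 was 0.09 with an interval of -0.44 to 0.63.

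Slc6a6, the sodium-coupled importer of taurine, fell. Its controls held 580 and 445 normalised counts and the LPS libraries 276 and 288, so the groups did not overlap although the controls differed. On the log2 scale it fell by 0.86 (SE 0.20, adjusted p = 0.0251), and the adjusted p was 0.551 without LPS replicate 1 and 0.457 without LPS replicate 2. Slc6a6 is at 91684048 to 91759063 of chromosome 6 and overlaps Gm44981.

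The other amino acid carriers named in macrophage biology did not pass. Slc7a1, the constitutive arginine importer, had a mean of 281 normalised counts in the controls and 277 with LPS. Slc7a5, which imports large neutral amino acids, had 247 and 228, and the glutamine carrier Slc1a5 had 260 and 280. The intervals of these log2 fold changes were -0.45 to 0.41 for Slc7a1, -0.58 to 0.37 for Slc7a5 and -0.30 to 0.52 for Slc1a5. Slc38a2, a glutamine carrier and among the most abundant members of its class, had 587 and 814 in the controls and 602 and 537 with LPS. The LPS libraries did not lie apart from the controls, and its log2 fold change was -0.30 (adjusted p = 0.588). That value was -0.51 without control replicate 1 and -0.05 without control replicate 2. Slc38a9, the lysosomal arginine sensor of the mTORC1 pathway, had 25.6 and 19.4 on average and did not pass. Slc36a1, a lysosomal proton-coupled amino acid carrier, had 97.1 and 66.7 in the controls and 39.8 and 44.01 with LPS. Both LPS libraries of Slc36a1 were below both controls, with a log2 fold change of -0.94 (adjusted p = 0.0890). That value was -0.66 without control replicate 1 and -1.22 without control replicate 2.

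Of 17 tested carriers of metals and heme, 2 rose, 1 fell and 14 were not called, with a class median of 0.10. The changes included iron carriers that work in opposite directions. Slc11a2 (DMT1), which imports ferrous iron across the plasma membrane and out of endosomes, rose. Slc40a1 (ferroportin), the known cellular exporter of iron, fell. Slc11a2 had 30.9 and 36.3 normalised counts in the controls and 165 and 151 with LPS, with no overlap and little spread within either pair. The log2 fold change of this record was 2.21 (SE 0.25, adjusted p = 0.000165) and passed in every alternative fit. A second tested record of Slc11a2 had 21.1 and 21.9 in the controls and 45.3 and 40.1 with LPS, a log2 fold change of 0.98 (adjusted p = 0.111). The difference between the records was not tested. Slc11a2 is on chromosome 15 at 100387898 to 100424209 and overlaps Gm5475.

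Slc40a1 had 39.4 and 32.9 normalised counts in the controls and 12.9 and 13.7 with LPS. Its groups did not overlap, but all values were low. Its log2 fold change was -1.42 (SE 0.35, adjusted p = 0.0354). The adjusted p was 0.314 without LPS replicate 1, 0.247 without LPS replicate 2 and 0.269 by DESeq2's Wald test. The gene lies on chromosome 1 at 45908070 to 45926532.

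Slc39a1 (ZIP1), a zinc importer of the plasma membrane, rose from 452 and 454 normalised counts to 799 and 746. Control values were nearly equal and both LPS libraries stood above them, 453 ± 1.81 against 772 ± 37.2 (SD, n = 2). The log2 fold change was 0.77 (SE 0.17, adjusted p = 0.0240), and the adjusted p was 0.589 without LPS replicate 1 and 0.460 without LPS replicate 2. It lies on chromosome 3 at 90248190 to 90253613.

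Slc11a1 (NRAMP1), the phagosomal metal exporter that limits growth of engulfed bacteria, had 328 and 207 in the controls and 344 and 332 with LPS. LPS libraries lay above both controls, but control replicate 1 was close to them. Its log2 fold change of 0.35 (adjusted p = 0.569) was 0.72 without control replicate 1 and 0.04 without control replicate 2. Slc25a37, the mitochondrial iron importer mitoferrin, belongs to the mitochondrial class and had 45.0 and 28.7 in the controls and 66.6 and 72.4 with LPS. The Slc25a37 groups were apart, with a log2 fold change of 0.95 (adjusted p = 0.103). That value was 1.28 without control replicate 1 and 0.62 without control replicate 2. Among other metal carriers, the zinc exporter Slc30a1 had 12.7 and 32.1 in the controls and 13.9 and 18.6 with LPS, which overlap. The zinc importer Slc39a10 had 259 and 412 in the controls and 283 and 326 with LPS, also overlapping. Its log2 fold change of -0.15 was -0.43 without control replicate 1 and 0.23 without control replicate 2. The transferrin receptor gene Tfrc, whose product delivers the iron that Slc11a2 carries out of endosomes, had 1250 and 1298 normalised counts on average and was not called.

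Of 4 tested sugar carriers, 1 rose and 3 were not called. Each of those 3 had both LPS libraries below both controls, as did 26.1% of members and 21.9% of all records. The riser was Slc2a1 (GLUT1), the basal glucose importer of most cells. Its values were 167 and 132 normalised counts in the controls and 312 and 326 with LPS, and the groups were apart. The log2 fold change of Slc2a1 was 1.10 (SE 0.20, adjusted p = 0.00736), and the adjusted p was 0.0806 without LPS replicate 1 and 0.136 without LPS replicate 2. The gene is at 119108745 to 119137330 of chromosome 4 and overlaps Gm12867 and Gm52706. Slc5a3, a sodium-coupled inositol importer that overlaps Mrps6, had 92.8 and 184 in the controls and 62.9 and 81.2 with LPS. The Slc5a3 control libraries differed about as much as the groups did. Its log2 fold change was -0.97 (adjusted p = 0.122), against -1.35 without control replicate 1 and -0.37 without control replicate 2.

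Among 4 tested carriers of monocarboxylates and organic ions, 1 rose. Slc16a10 (TAT1), placed here by its subfamily number but known as a carrier of aromatic amino acids, had 177 and 184 normalised counts in the controls. With LPS it had 377 and 342, above both. Its log2 fold change was 0.99 (SE 0.19, adjusted p = 0.00860), with 0.276 for the adjusted p without LPS replicate 1 and 0.134 without LPS replicate 2. It is 1 of the 5 tested members with several records and lies on chromosome 10 at 40033532 to 40142270, overlapping Gm25613. Slc16a1 (MCT1), which moves lactate and pyruvate with protons, was abundant and not called. It had 1290 and 1653 in the controls and 1453 and 1516 with LPS, where the LPS values fell between the controls, and its interval ran from -0.40 to 0.42. Emb, which encodes a chaperone of monocarboxylate carriers, had 792 and 782 on average and was not called either.

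Of 16 tested carriers of inorganic ions and acid equivalents, 1 rose and 15 were not called, with a median of -0.04. Slc4a7 (NBCn1), a sodium bicarbonate importer that raises cytosolic pH and is known in macrophages for phagosome acidification, rose. It had 138 and 177 normalised counts in the controls and 380 and 440 with LPS. The groups were well apart, and the log2 fold change of 1.37 (SE 0.21, adjusted p = 0.00183) passed in every alternative fit. Slc4a7 lies at 14703011 to 14799944 of chromosome 14. Slc12a9, a relative of the cation chloride cotransporters, had 54.9 and 41.4 in the controls and 21.3 and 25.4 with LPS. Its LPS libraries were both lower, with a log2 fold change of -1.02 (adjusted p = 0.103). That value was -0.82 without control replicate 1 and -1.24 without control replicate 2. Slc24a5, an exchanger of sodium and calcium known from melanosomes, was among the most abundant of the class with 121 and 160 on average. Its log2 fold change of 0.38 (adjusted p = 0.476) was 0.24 without control replicate 1 and 0.57 without control replicate 2.

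Of 5 tested carriers of vitamins, nucleosides and choline, 1 fell and 4 were not called, with a median of -0.42. Slc29a3 (ENT3), the nucleoside carrier of lysosomes and mitochondria, had 35.2 and 39.7 normalised counts in the controls and 10.2 and 13.7 with LPS. LPS values were all below the controls, yet the raw counts behind them are few. The log2 fold change was -1.65 (SE 0.35, adjusted p = 0.0176), the lowest of the 111 tested members. The adjusted p was 0.233 without LPS replicate 1, 0.0634 without LPS replicate 2 and 0.140 by DESeq2's Wald test. Slc29a3 is on chromosome 10 at 60712072 to 60752849. Slc23a2, an importer of ascorbate, had 304 and 330 in the controls and 481 and 425 with LPS. The Slc23a2 groups were apart, with a log2 fold change of 0.51 (adjusted p = 0.176). That value was 0.47 without control replicate 1 and 0.57 without control replicate 2. Slc46a1, which imports folate and has been described as a carrier of cyclic dinucleotides, had 47.8 and 32.7 on average, and the riboflavin carrier Slc52a2 had 105 and 116. Neither passed in any fit.

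None of the 25 tested mitochondrial carriers passed edgeR's test as reported, DESeq2's Wald test or limma-voom, and 7 had an unadjusted p under 0.05 in edgeR. Over all records edgeR called 3.82% higher and 1.70% lower at the adjusted threshold, so a class of 25 may hold few calls or none. The count at the unadjusted threshold has no such share beside it. With the GC and length trend removed 4 passed, Slc25a33 and Slc25a37 higher and Slc25a10 and Slc25a45 lower. In that fit more of all records passed as well, 428 of 6981 higher and 319 lower. Without a filter on low counts Slc25a37 and Slc25a45 passed, beside 365 higher and 209 lower of 13081 records. Slc25a33 and Slc25a10 are named after their values were seen. As reported, Slc25a33, a pyrimidine nucleotide carrier, had a log2 fold change of 0.73 (adjusted p = 0.177). Slc25a10, the dicarboxylate carrier, had -0.52 (adjusted p = 0.261). Their log2 fold changes ran from -0.98 (Slc25a45) to 0.95 (Slc25a37) with a median of 0.01, and 19 of the 25 intervals lay within 1 log2 unit on both sides. Slc25a5 and Slc25a4, carriers that exchange ADP for ATP across the inner membrane, were the most abundant. Slc25a5 had 2643 and 2496 normalised counts in the controls and 2893 and 2594 with LPS, which overlap, and an interval of -0.29 to 0.48. Slc25a4 had 762 and 939 in the controls and 835 and 865 with LPS, with an interval of -0.40 to 0.40. Slc25a1, which exports citrate for cytosolic acetyl-CoA synthesis, had 215 and 144 in the controls and 210 and 195 with LPS. Its log2 fold change of 0.18 was 0.50 without control replicate 1 and -0.09 without control replicate 2. Slc25a45 had 95.6 and 76.8 in the controls and 41.6 and 45.0 with LPS, the smallest p of the uncalled members. Slc25a45 had no overlap between groups and an adjusted p of 0.0526. Its log2 fold change of -0.98 was -0.82 without control replicate 1 and -1.15 without control replicate 2.

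The nucleotide sugar class holds every member of subfamily Slc35 by its number, whatever the substrate of each. None of its 12 tested members passed edgeR, DESeq2's Wald test or limma-voom, and 1 had an unadjusted p under 0.05. Their median log2 fold change was -0.11 and their range -0.63 to 0.30. Slc35e1 had 214 normalised counts in the controls and 245 with LPS on average. Its log2 fold change of 0.21 was 0.48 without control replicate 1 and -0.04 without control replicate 2. Slc35a3, a carrier of UDP-N-acetylglucosamine, had 194 and 222. Its log2 fold change of 0.18 was -0.12 without control replicate 1 and 0.61 without control replicate 2. Of 3 tested carriers of fatty acids and acetyl-CoA, 0 passed by edgeR, DESeq2 or voom and 0 had an unadjusted p under 0.05. Slc27a1, which imports and activates long-chain fatty acids, had 660 and 650 on average, and Slc27a4 had 19.1 and 13.4. The vesicular class had 1 tested gene, Slc17a9, which loads ATP into vesicles and lysosomes, with 61.0 and 53.7. The only tested unclassified member was Slc49a4, named here after its values were seen, with 12.7 and 6.75 in the controls and 31.4 and 17.6 with LPS. Slc49a4 had a log2 fold change of 1.42 (adjusted p = 0.138). None of the 3 tested members that are not transporters passed edgeR, DESeq2 or voom, and 2 had an unadjusted p under 0.05.

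**Figure D3:**
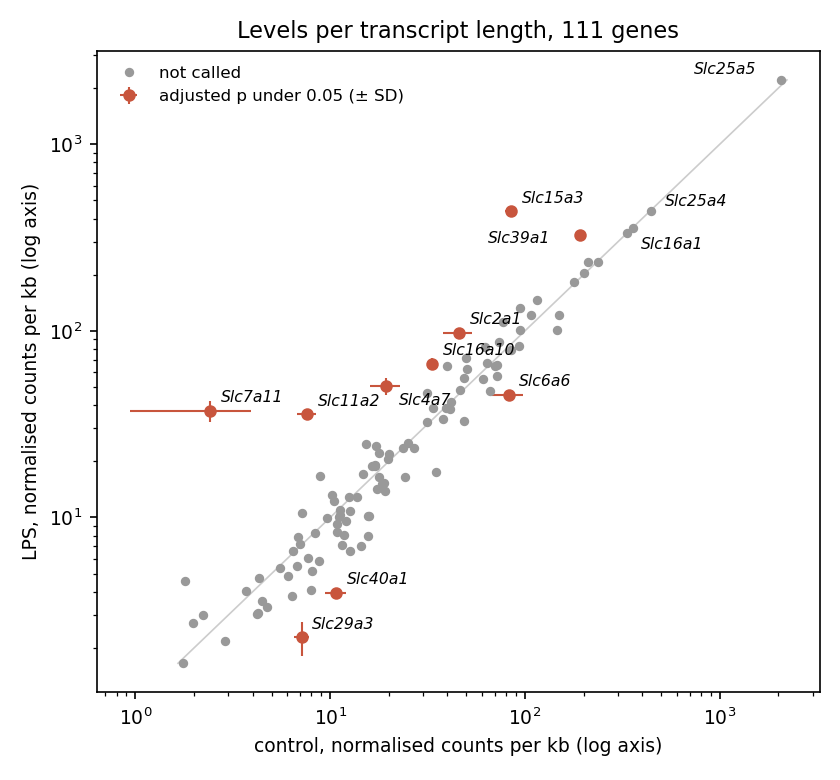
Mean normalised counts per kilobase of transcript in the control libraries (x axis, log axis) against the LPS libraries (y axis, log axis) for 111 solute carrier genes, where red points passed an adjusted p under 0.05 and bars are SD over 2 libraries. Most genes lie near the line of equality. Slc15a3, at 84.9 in controls and 438 with LPS, rises to the level of Slc25a4 (442 with LPS) and stays below Slc25a5 (2213 with LPS).

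Levels can be compared between genes once divided by transcript length, where a gene with several records is ranked by its most abundant record only. In the controls Slc25a5 was highest with 2072 ± 84.0 normalised counts per kilobase (SD, n = 2), followed by Slc25a4 at 442 ± 64.7, the mitochondrial glutathione carrier Slc25a39 at 358 ± 84.0 and Slc16a1 at 332 ± 57.9. The control libraries of Slc25a39 (417 and 299) overlapped those of Slc25a4 (396 and 488) and of Slc16a1 (291 and 373), while Slc25a4 was above Slc16a1 in both. Slc25a39 is named here for its rank. With LPS, Slc15a3 moved from rank 18 to rank 3 of the 111 by this level, and Slc7a11 from rank 107 (2.42 per kilobase) to rank 42 (37.3). A gene can pass the filter on counts through either group alone, so ranks near the bottom depend on that filter. The Slc11a2 record that rose, 1 of the gene's 2, went from rank 90 to rank 43. In the other direction Slc6a6 went from rank 19 to 37, Slc40a1 from 80 to 101 and Slc29a3 from 92 to 109. Slc25a5, Slc25a4 and Slc16a1 together held 24.3% to 27.4% of all solute carrier counts in each library.

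**Figure D4:**
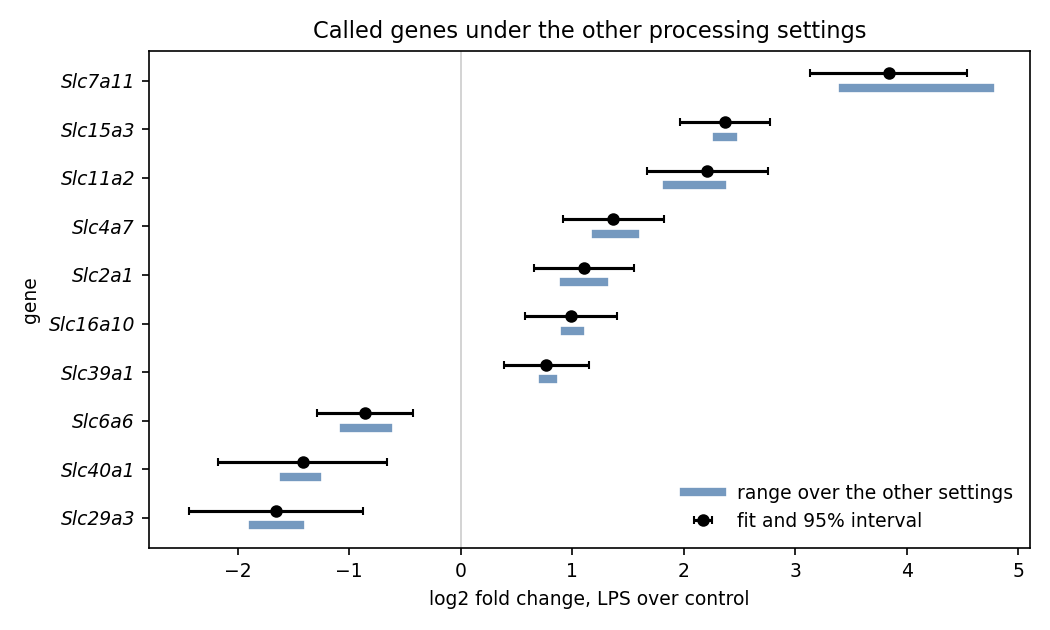
Log2 fold change after LPS (x axis, LPS over control) of the 10 solute carrier genes that changed (y axis), where black points and bars are the reported fit with its 95% interval and blue bars span the values over 14 alternative fits. No blue bar crosses 0, and the widest is that of Slc7a11, from 3.43 to 4.75.

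Genes that work beside the carriers were read from the same fit, in which 3.82% of all records rose and 1.70% fell. Of 50 ABC transporter genes, the other large family of membrane transporters, 23 were tested. Abcc5, an exporter of cyclic nucleotides and organic anions, rose with a log2 fold change of 1.46. Abcg1, a cholesterol exporter, fell with -1.69, and Abcd2, a peroxisomal fatty acid carrier, fell with -2.19, while the median of the 23 was -0.11. Of 15 Slco genes 14 had no count, and the tested one, Slco4a1, was not called (0.50). Of 26 genes listed as partners of solute carriers or users of their substrates, 16 were tested, 2 rose and 0 fell, with a median of 0.02. The risers were Odc1, which makes polyamines from ornithine (1.33), and Nos2, which makes nitric oxide from arginine and had 0 counts in the controls. Around the cystine carrier Slc7a11, Gclc and Gclm, the subunits of the enzyme that turns cysteine into the glutathione precursor, did not pass: Gclc had 67.9 and 57.8 normalised counts on average in controls and LPS, and Gclm 45.9 and 60.5. Arg1, which competes for arginine, had 32.1 and 10.5, and was not called (adjusted p = 0.0558).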

How the data were processed

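RNA of 4 libraries (2 control, 2 LPS) was read from a deposited table of counts per RefSeq transcript record. Although the table is described as normalised, its values are whole numbers with a different total in each library, and they were treated as raw counts deposited by the authors. Per the submitters' processing notes, the tools were HTSeq 0.6.1, TopHat2 2.0.10, Trimmomatic 0.33, CASAVA 1.8.2 and Cufflinks 2.2.1 and the build was mm10, with no role named. For the counting mode and its strand setting, nothing is given in the sources used. Overlapping genes are therefore named beside their values. The library kit was directional, with depletion of ribosomal RNA, per the labels' protocols.

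Of 32915 records, 32487 matched a symbol in RefSeq's GRCm38.p6 table. Records passing filterByExpr (minimum count 10) were scaled by TMM and fitted with edgeR 4.0.16 (quasi-likelihood, R 4.3.3), over all 4 libraries without covariates, and p-values were adjusted by Benjamini-Hochberg over 6981 records at 0.05. Normalised counts are counts scaled to the mean effective library size, 3119862. Alternatives used DESeq2 1.42.0, limma-voom 3.58.1, other filters, scalings and GC and length offsets, and left out each library in turn. Scripts were tested on simulated data. Named genes were those that passed, the 2 most abundant tested members of each substrate class, the 5 uncalled members of smallest p and 24 carriers with a textbook role in macrophages. The members and lists were chosen with earlier results of these data known. Substrate classes follow subfamily numbers. Depth and the split of counts over records limit low genes. The highest total of an untested member was 43 counts, on the most abundant of the 3 records of Slc38a1. Another record of Slc38a1, with 39 counts, was tested and not called (log2 fold change 0.53, adjusted p = 0.803 by edgeR's test).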

Additional observations from a re-analysis of the deposited data

How the results depend on the processing

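The 7 rises and 3 falls among members, and 267 and 119 among all records, were recomputed under 14 alternatives. Members stayed at 7 and 3 with DESeq2 size factors, limma-voom, summed records and without the 5 most abundant records. DESeq2's Wald test gave 1 fall (66 over all records), no filter 8 (209), and a mean of at least 50 counts 1 fall, 164 and 54 over all records and a median log2 fold change of members of 0.065. Leaving out single libraries gave 4 to 19 rises and 0 to 9 falls among members, 165 to 723 and 39 to 581 over all records, and medians of members of -0.0784 to -0.0173. Removing the GC and length trend gave 11 rises and 8 falls (428 and 319 over all records). The replicate block gave 10 and 7 (401 and 288), 3 of them mitochondrial carriers, and both together 16 and 11 (570 and 552). Rises were 69.2% of all calls as reported, 57.3% without the GC trend, 58.2% with the block and 50.8% with both. Labels do not pair the numbered samples; same-numbered deviations correlated at 0.24. Over 37 tested named genes, 0 of 511 pairs of gene and alternative reversed a call, 14 lost one and 38 gained one; the cause was not tested. Of the changed genes, a mean filter of 50 removes Slc29a3 and Slc40a1. With 2 libraries per group, a change of any size inside the interval of an uncalled gene is not excluded.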

Other observations

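Some members outside the tested set differed when all records with at least 1 count were fitted. Slc26a11, a sulfate and chloride carrier, had 9 and 10 counts in the controls and 0 and 3 with LPS, with a log2 fold change of -2.69 and an adjusted p of 0.0141 by edgeR's test. Slc46a3, a lysosomal carrier, had 6 and 23 counts in the controls and 5 and 3 with LPS, with -1.91 and an adjusted p of 0.0157. The control libraries of Slc46a3 differ widely, and both genes were named after their values were seen.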
